A study of Mus musculus with 4 samples.

Results

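Laminins, integrins and other basement membrane proteins make up the sheet on which the epithelium, vessels and muscle of the lung rest, and the receptors by which cells hold on to it. All probe sets that the array annotation paired with 1 of 37 listed gene symbols were taken from the deposited values of both array designs. Of the 37 genes, 36 had a probe set, out of 18193 genes named by a single symbol in the series. They were 9 laminin chains, 8 other basement membrane proteins, 15 integrin chains and 4 adhesion proteins that bind integrins inside the cell. Ptk2, the focal adhesion kinase, was paired with no probe set and was not analysed here. The 36 genes had 89 probe sets, 70 on the design MOE430A and 19 on MOE430B.

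The RNA came from lungs of mouse embryos at E18.5, shortly before birth. Embryos of 1 genotype were Myf5-/-:MyoD-/-, labelled BALB/c Myf5:Myod null a name for germline loss of both myogenic regulators, and embryos of the other were wild type, labelled BALB/c. Each hybridisation started from 6 µg of total RNA, copied into biotin-labelled cRNA. There were 4 arrays in all, 1 per genotype on each of the Affymetrix designs MOE430A and MOE430B. The title of the series names the role of skeletal muscle in lung development as its subject. How many embryos stood behind an array, whether both designs received the same RNA, and the sex of the embryos are not given by the labels. With no replicate there is no test between genotypes and no p-value, and the number of arrays limits the precision of every value.

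The basement membrane is a thin network of laminin and type IV collagen. A laminin molecule joins an alpha, a beta and a gamma chain, and nidogens and the proteoglycan perlecan tie it to the collagen. Integrins are pairs of an alpha and a beta chain that hold laminin, fibronectin or nephronectin outside the cell. Inside the cell they bind talin, vinculin, paxillin and integrin-linked kinase, which connect them to actin. In mice, loss of single laminin or integrin chains disturbs the branching of the airways or the walls between air spaces.

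The targeted genes were examined first and did not settle the labels. Myf5 read 8.94 in the array labelled double knockout and 110.5 in the array labelled wild type, both below the floor of 283.8 under which MOE430A signals were not ordered. Myod1 went against the label on MOE430A, with 1081 in the array labelled double knockout and 85.0 in the array labelled wild type, at least 3.81-fold higher. On MOE430B it read 607.2 in the array labelled double knockout and 337.2 in the array labelled wild type, below the filter. The sources used here do not say whether these probe sets lie in the deleted parts of the genes, and a probe set outside them checks nothing. The arrays are therefore called knockout-labelled and wild-type-labelled, and each higher or lower depends on those names. Xist, of female cells, read 2749 in the knockout-labelled array and 7600.0 in the wild-type-labelled array, and the Y-linked Uty read 653.1 in the knockout-labelled array and 164.9 in the wild-type-labelled array, so sex and genotype cannot be told apart. The lung marker Sftpc was strong in both, at 113337 in the knockout-labelled array and 78525 in the wild-type-labelled array. The ratio of the 3′ to the 5′ control probe sets of Gapdh and beta-actin, which is higher in degraded RNA, lay between 0.81 and 1.03 on knockout-labelled arrays and between 0.75 and 1.06 on wild-type-labelled arrays.

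Signals are intensities on a linear scale. A probe set counted as measured when at least 1 of its signals came up to 787.4 on MOE430A or 855.1 on MOE430B, the medians over all signals there. Of the 89 probe sets, 60 passed, and both of their signals lay above the floor, so all their ratios are measured on both sides. Those 60 read 30 genes, 26 on MOE430A and 7 on MOE430B, with Lamb1, Agrn and Itga8 on both. A gene is represented on a design by its passing probe set of highest mean signal, and ratios are log2 of the knockout-labelled over the wild-type-labelled signal. The nearest thing to an error here comes from 100 probe sets present on MOE430A and on MOE430B alike, whose log2 ratios had an SD of 0.24 each. That SD is purely technical only if both designs received the same RNA, which the labels do not give. It leaves out the mean difference of those ratios, -0.22 for MOE430B minus MOE430A. With 1 array per genotype and design it does not measure the spread between embryos. No size below is therefore shown to exceed the difference between 2 lungs of 1 genotype. Probe sets of 1 gene differed more, with an SD of 0.37 over all genes on MOE430A and 0.71 on MOE430B, and of 0.34 over the 16 members with more than 1 passing probe set on MOE430A.

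Most members differed little between the genotypes. On MOE430A, 11 of 26 measured members were higher and 15 lower in the knockout-labelled lung, with a median log2 ratio of -0.07 against 0.01 over all 7658 genes measured. Lama4 and Itga8 were at least 1.5-fold higher and Itga6 was at least 1.5-fold lower. Over all genes of that design, 6.23% were past 1.5-fold upward and 6.32% downward, so 2 and 1 of 26 members are near the background. On MOE430B, Itga8 was at least 1.5-fold higher and Agrn at least 1.5-fold lower among 7 members, where 14.3% and 14.0% of 6728 genes were. The median of those 7 was -0.18 against -0.04 over all genes of the design. No representative probe set of a member reached 2-fold on either design, where 1.76% of genes were at least 2-fold higher and 1.78% lower on MOE430A, and 7.07% higher and 6.26% lower on MOE430B.

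**Figure D1:**
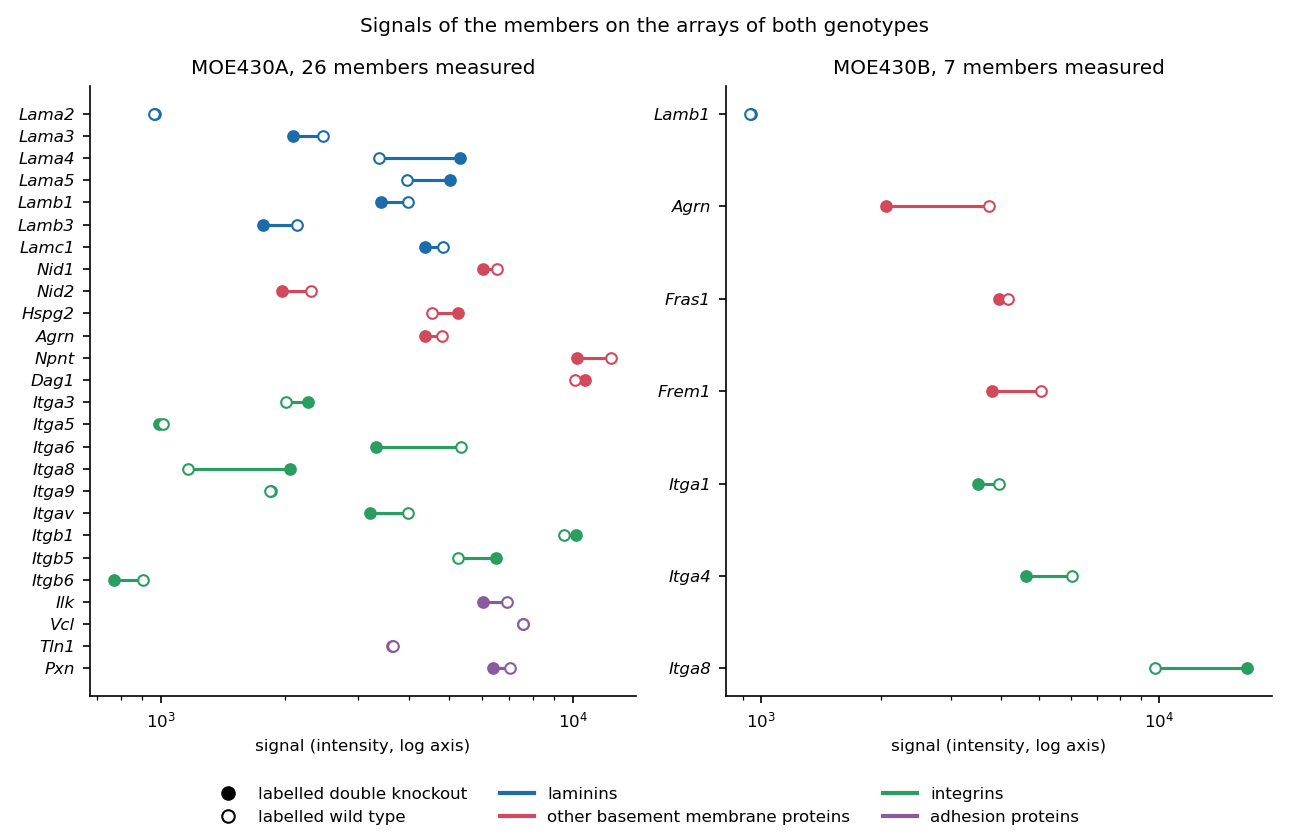
Signal intensity (log axis) of each measured member on the knockout-labelled array (filled) and the wild-type-labelled array (open) of MOE430A, left, and MOE430B, right, by the probe set that represents the gene. Each line joins the 2 arrays of a gene, and lines of different genes are not comparable in level. Itga8 has the longest line to the right of wild type on both designs, Itga6 on MOE430A and Agrn on MOE430B have the longest lines to the left, and most other pairs nearly coincide.

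Itga8 was past 1.5-fold on both designs. It is the integrin alpha chain of lung mesenchyme and smooth muscle that binds nephronectin. On MOE430A it read 2056 in the knockout-labelled array and 1164 in the wild-type-labelled array, 1.77-fold higher with a log2 ratio of 0.82. On MOE430B a different probe set read 16681 in the knockout-labelled array and 9783 in the wild-type-labelled array, 1.71-fold higher with a log2 ratio of 0.77. Only Lamb1 and Agrn were also measured on both designs, and neither was past 1.5-fold on both. The ratio on MOE430B is close to the SD of 0.71 between probe sets of 1 gene there, and both designs may have received the same RNA. On MOE430A 2.85% of all genes had a ratio at least as high, and on MOE430B 10.1%. Dividing the genes of MOE430B into 4 equal classes by mean signal put it in the brightest, where 2.56% were at least 1.5-fold higher. On MOE430A it lay in the second dimmest of 4 classes, where 5.59% were. Itgb1, the beta chain with which Itga8 pairs, read 10191 in the knockout-labelled array and 9481 in the wild-type-labelled array, a log2 ratio of 0.10, with 0.02 by its other passing probe set. Many other alpha chains share this beta chain. The nephronectin gene Npnt, given below, did not share its direction by its brightest probe set.

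Most markers of mesenchyme and smooth muscle were higher on the same arrays. Of 6 mesenchymal genes measured on MOE430A, 5 were higher, 2 of them at least 1.5-fold, where 6.23% of all genes of that design were. The summed signal was 31790 in the knockout-labelled array and 20840.0 in the wild-type-labelled array. Most of that sum was Tcf21, a transcription factor of lung mesenchyme, with 19966 in the knockout-labelled array and 10849.6 in the wild-type-labelled array. Its log2 ratios were 0.88 on MOE430A and 0.80 on MOE430B, while Pdgfra, a receptor of mesenchymal cells, was lower at -0.45 on MOE430A. On MOE430B 2 of 3 genes were higher. All 5 smooth muscle genes on MOE430A were higher, 1 of them at least 1.5-fold, where 6.23% of all genes were. The 5 summed to 49244 in the knockout-labelled array and 34994 in the wild-type-labelled array. The part of these cells in the Itga8 ratio was not tested, and in whole lung a different share of a cell type cannot be told apart from different RNA per cell.

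The sequence around the start of Itga8 is shown because it was the member higher on both designs, with those of Itga4 and Agrn, whose lowest ratios are described below, for comparison. They are RefSeq windows of assembly GRCm38.p6, 250 bases before to 50 after an annotated start, on the strand of the gene. The table held 33 windows for 25 of the 37 genes. Capitals mark each CANNTG, the E-box that MYF5 and MYOD1 and many other factors can bind.
Itga8, chr2:12301895-12302194, minus strand: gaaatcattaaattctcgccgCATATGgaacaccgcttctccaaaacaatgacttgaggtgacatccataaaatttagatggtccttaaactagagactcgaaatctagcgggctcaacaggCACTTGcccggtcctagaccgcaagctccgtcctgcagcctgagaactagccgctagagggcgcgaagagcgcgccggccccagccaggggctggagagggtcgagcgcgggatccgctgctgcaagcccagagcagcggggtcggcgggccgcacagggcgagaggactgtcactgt
Itga4, chr2:79255176-79255475, plus strand: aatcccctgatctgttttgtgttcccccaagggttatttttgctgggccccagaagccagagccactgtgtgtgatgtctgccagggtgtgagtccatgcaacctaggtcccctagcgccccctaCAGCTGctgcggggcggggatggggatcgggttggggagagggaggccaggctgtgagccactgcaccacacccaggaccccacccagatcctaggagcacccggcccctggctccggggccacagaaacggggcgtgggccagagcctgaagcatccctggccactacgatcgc
Agrn, chr4:156197439-156197738, minus strand: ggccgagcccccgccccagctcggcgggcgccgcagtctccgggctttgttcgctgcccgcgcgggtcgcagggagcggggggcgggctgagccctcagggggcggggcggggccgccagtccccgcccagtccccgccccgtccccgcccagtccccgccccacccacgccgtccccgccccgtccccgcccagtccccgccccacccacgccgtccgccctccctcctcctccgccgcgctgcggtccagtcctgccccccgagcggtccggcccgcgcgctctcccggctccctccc

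The Itga8 window held 2 matches to CANNTG, the Itga4 window 1 and the printed Agrn window none, and the match in Itga4 was the form CAGCTG. A second Agrn window of the table, at another start (chr4:156186210-156186509), held 1 match to CANNTG. Searched on both strands, 24 of the 33 windows of the members (72.7%) held CANNTG, against 72.3% of all 32851 windows of the table. CAGCTG, which is a subset of CANNTG, was in 6 of 33 (18.2%) against 16.3%. GGAATG, the core bound by TEAD factors, was in 4 of 33 (12.1%) against 14.7%. The CArG box of serum response factor was in 3 windows, of Itgb6, Lama2 and Vcl (9.09% against 1.63%), and TATAAA was in none against 13.6%. These matches describe letters and not bound sites. Itga8 held none of the CArG, GGAATG or TATAAA motifs.

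The laminin chains showed no common direction. Of 7 measured on MOE430A, 3 were higher and 4 lower in the knockout-labelled lung, 1 of them, Lama4, at least 1.5-fold, and their median log2 ratio was -0.15 against 0.01 over all genes. The 4 alpha chains had a median of 0.18, from -0.24 to 0.66, and overlapped the 2 beta chains, at -0.22 and -0.28.

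Lama4, the alpha chain of vessel and muscle basement membranes, read 5316 in the knockout-labelled array and 3371 in the wild-type-labelled array, 1.58-fold higher with a log2 ratio of 0.66. Its other probe set read 2604 in the knockout-labelled array and 2574 in the wild-type-labelled array, a log2 ratio of 0.02. The call for the gene rests on 1 of its 2 probe sets, and their median of 0.34 is under 1.5-fold. The 5 endothelial markers measured on MOE430A had a median of 0.07, summing to 16707 in the knockout-labelled array and 17683 in the wild-type-labelled array, and their part in the Lama4 ratio was not tested.

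Lama5, the alpha chain of most epithelial basement membranes in the lung, was higher by both of its passing probe sets. The brighter read 5024 in the knockout-labelled array and 3941 in the wild-type-labelled array, a log2 ratio of 0.35. The other read 1559 in the knockout-labelled array and 1090.0 in the wild-type-labelled array, a log2 ratio of 0.52. Neither reached 1.5-fold, and both had the same sign. Its partners in the trimer had ratios near or below 0. Lamb1, the beta chain, read 3413 in the knockout-labelled array and 3965 in the wild-type-labelled array, a log2 ratio of -0.22. Its other probe sets gave -0.13 and 0.07 on MOE430A and 0.00 on MOE430B, where it read 939.8 in the knockout-labelled array and 938.4 in the wild-type-labelled array. Lamc1, the gamma chain of most laminins, read 4364 in the knockout-labelled array and 4832 in the wild-type-labelled array, a log2 ratio of -0.15. A Lamc1 probe set below the filter read 176.3 in the knockout-labelled array, under the floor, and 736.1 in the wild-type-labelled array, at least 2.59-fold lower.

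The chains of the laminin of squamous and airway epithelium, which anchors hemidesmosomes, were both slightly lower by their passing probe sets. Lama3 read 2085 in the knockout-labelled array and 2465 in the wild-type-labelled array, a log2 ratio of -0.24. Lamb3 read 1768 in the knockout-labelled array and 2142 in the wild-type-labelled array, a log2 ratio of -0.28. Each rests on 1 passing probe set. A Lama3 probe set below the filter on MOE430B went the other way, at least 1.86-fold higher. It read 518.1 in the knockout-labelled array and 177.6 in the wild-type-labelled array, the latter under the floor. Lama2, the alpha chain of muscle and nerve, whose mutation causes muscular dystrophy, read 965.7 in the knockout-labelled array and 961.3 in the wild-type-labelled array, a log2 ratio of 0.01. This muscle laminin chain read nearly the same in both arrays by its single probe set. Lama1, the alpha chain of the early embryo, read 15.5 in the knockout-labelled array and 24.8 in the wild-type-labelled array, far below the floor, and gives no fold. Lamb2, the beta chain of mature vessels and synapses, read 736.3 in the knockout-labelled array and 766.5 in the wild-type-labelled array, just below the filter.

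The other basement membrane proteins differed little. On MOE430A 4 of 6 were lower and none was past 1.5-fold, with a median log2 ratio of -0.12 and a range of -0.28 to 0.21. On MOE430B all 3 were lower and 1 was past 1.5-fold, and the median was -0.41. The log2 ratios of the shared probe sets were a mean 0.22 lower there than on MOE430A.

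Nid1 and Nid2, the nidogens that link laminin to collagen, were lower by all 3 of their passing probe sets. Nid1 read 6042 in the knockout-labelled array and 6537 in the wild-type-labelled array by its brighter probe set, a log2 ratio of -0.11. The other read 2901 in the knockout-labelled array and 3753 in the wild-type-labelled array, a log2 ratio of -0.37. Nid2 read 1962 in the knockout-labelled array and 2308 in the wild-type-labelled array, a log2 ratio of -0.23. None of the 3 reached 1.5-fold. Hspg2, perlecan, read 5266 in the knockout-labelled array and 4541 in the wild-type-labelled array, a log2 ratio of 0.21, but -0.14 by its other probe set.

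Agrn, agrin, a heparan sulfate proteoglycan of lung basement membranes and of the neuromuscular junction, differed in size between its probe sets on MOE430A and MOE430B. On MOE430A it read 4375 in the knockout-labelled array and 4805 in the wild-type-labelled array, a log2 ratio of -0.14. On MOE430B another probe set read 2060.4 in the knockout-labelled array and 3748 in the wild-type-labelled array, 1.82-fold lower with a log2 ratio of -0.86, and 8.01% of the genes of that design had a ratio at least as low. The sign was the same and the size was not, and probe set and design cannot be told apart here. In the signal class of MOE430B that holds this probe set, the second brightest of 4, 8.50% of genes were at least 1.5-fold lower.

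Npnt, nephronectin, the ligand of Itga8, had 5 passing probe sets, and they differed in sign. The brightest read 10199.6 in the knockout-labelled array and 12372 in the wild-type-labelled array, a log2 ratio of -0.28. The lowest was -0.52, with 1029 in the knockout-labelled array and 1474 in the wild-type-labelled array, and another gave -0.36. The remaining ones gave 0.05 and 0.14. No probe set was 1.5-fold lower or higher, while Itga8 was 1.71-fold and 1.77-fold higher. The sign for Npnt depends on the probe set, so whether receptor and ligand differed together is not settled.

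Dag1, dystroglycan, a laminin receptor outside the integrin family, was level by 4 probe sets, with log2 ratios from -0.16 to 0.26. The brightest read 10692 in the knockout-labelled array and 10127 in the wild-type-labelled array. Fras1 and Frem1, which build a complex under embryonic epithelium and are mutated in Fraser syndrome and related malformations, were read on MOE430B. Fras1 read 3965 in the knockout-labelled array and 4169 in the wild-type-labelled array, a log2 ratio of -0.07. A Fras1 probe set below the filter read 416.6 in the knockout-labelled array and 677.4 in the wild-type-labelled array, 1.63-fold lower. Frem1 read 3805 in the knockout-labelled array and 5054 in the wild-type-labelled array, a log2 ratio of -0.41, and 21.9% of genes there had a ratio at least as low.

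**Figure D2:**
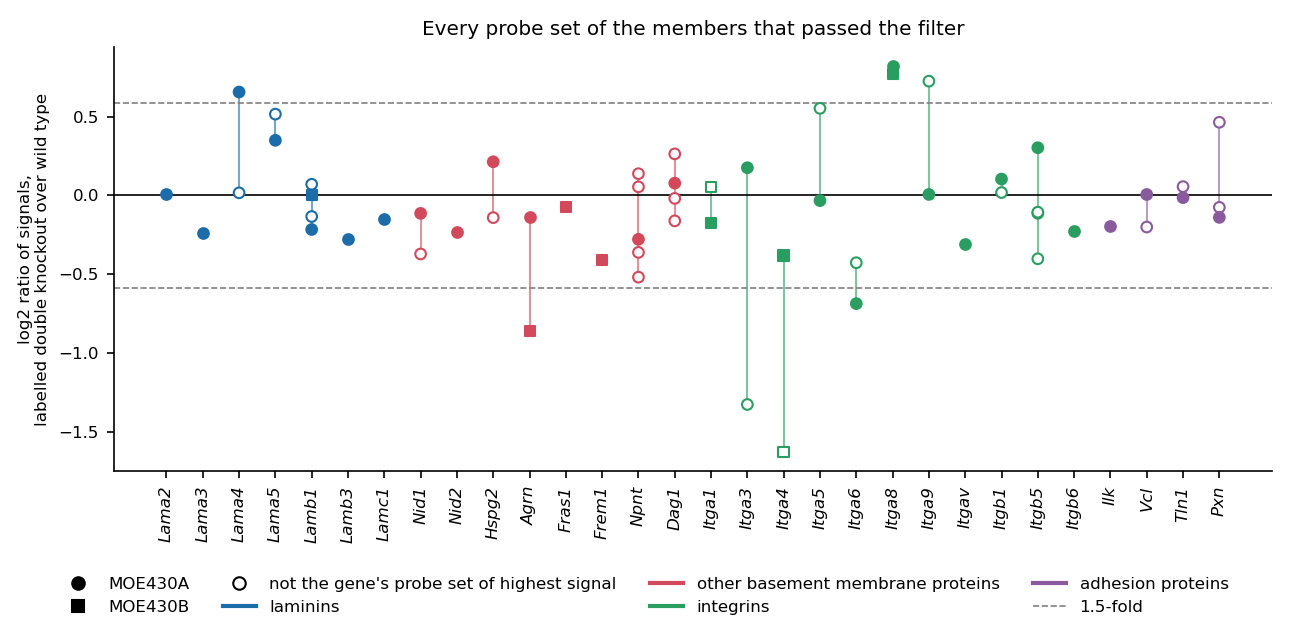
Log2 ratio of the knockout-labelled over the wild-type-labelled signal for each of the 60 passing probe sets of the members, on MOE430A (circles) and MOE430B (squares). Filled symbols represent the gene, vertical lines span its probe sets and dashed lines mark 1.5-fold. Both Itga8 symbols lie above the upper line, both Itga6 symbols below 0, and the probe sets of Itga3, Itga4 and Agrn are far apart.

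The integrin chains were split between higher and lower. Of 9 measured on MOE430A, 5 were higher and 4 lower, 1 at least 1.5-fold each way, and the median log2 ratio of 0.01 equalled that over all genes. On MOE430B 1 of 3 was higher and 2 were lower, with a median of -0.18. The range on MOE430A, from -0.69 for Itga6 to 0.82 for Itga8, was wider than in the other groups.

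Itga6, the laminin-binding alpha chain of epithelium, which pairs with Itgb4 in hemidesmosomes, was the lowest member on MOE430A. Its brighter probe set read 3321 in the knockout-labelled array and 5348 in the wild-type-labelled array, 1.61-fold lower with a log2 ratio of -0.69. Its other probe set read 2166 in the knockout-labelled array and 2913 in the wild-type-labelled array, a log2 ratio of -0.43. Both probe sets lay below 0, and 4.43% of genes on the design had a ratio as low as the first. The median of both, -0.56, is just under 1.5-fold. In the brightest of 4 signal classes of the design, where it lies, 3.39% of genes were at least 1.5-fold lower. Itgb4 read 172.4 in the knockout-labelled array and 273.3 in the wild-type-labelled array, both below the floor, and gives no fold.

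Itga4, the alpha chain by which lymphocytes and other cells bind fibronectin and VCAM1, was lower by both of its passing probe sets, on MOE430B. The brighter read 4642 in the knockout-labelled array and 6039 in the wild-type-labelled array, a log2 ratio of -0.38. The other read 800.8 in the knockout-labelled array and 2477 in the wild-type-labelled array, 3.09-fold lower with a log2 ratio of -1.63. Its 3 probe sets on MOE430A stayed below the filter, with signals from 93.8 to 304.5 in the knockout-labelled array and from 72.5 to 251.7 in the wild-type-labelled array. The passing probe sets share a direction but differ widely, so the size is not settled.

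Lymphocyte markers were far lower in the same arrays, and Itga4 and Itga6 are both carried by lymphocytes and their precursors. All 9 marker genes measured on MOE430A were at least 2-fold lower, where 1.78% of all genes were. Of the 9, 5 (Cd3d, Cd3e, Cd3g, Rag1 and Ikzf1) were below the floor in the knockout-labelled array and have only bounds. With bounds taken at their value the median log2 ratio was -3.12, which is itself the bound of Cd3g. The signals as read, those below the floor included, summed to 2652 in the knockout-labelled array and 25507 in the wild-type-labelled array. On MOE430B 2 were lower, 1 of them at least 2-fold, where 6.26% of all genes were. The 2 summed to 5185 in the knockout-labelled array and 12533 in the wild-type-labelled array. The part of these cells in the Itga4 and Itga6 ratios was not tested. Of 7 integrins found mainly on white blood cells, taken from a wider list, 3 were measured and 1, Itgal, was past 1.5-fold. Over all genes, 6.32% on MOE430A and 14.0% on MOE430B were at least 1.5-fold lower. Itgal, the alpha chain of LFA-1, read 609.2 in the knockout-labelled array and 1087 in the wild-type-labelled array on MOE430A and 1677 in the knockout-labelled array and 6829 in the wild-type-labelled array on MOE430B, log2 ratios of -0.84 and -2.03. Itgb2, its beta chain, had -0.30 on MOE430A and Itgae had -0.06 on MOE430B.

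Itga3, the laminin-binding alpha chain of lung epithelium, was contradictory. The brighter probe set read 2266 in the knockout-labelled array and 2006 in the wild-type-labelled array, a log2 ratio of 0.18. The other read 563.6 in the knockout-labelled array and 1415 in the wild-type-labelled array, 2.51-fold lower with a log2 ratio of -1.33, and no direction can be given. Itga9, an alpha chain that binds tenascin-C, read 1845 in the knockout-labelled array and 1837 in the wild-type-labelled array, a log2 ratio of 0.01. Its other probe set read 1279 in the knockout-labelled array and 773.0 in the wild-type-labelled array, 1.65-fold higher with 0.73. Itga5, the fibronectin receptor chain, behaved alike, at -0.03 with 984.9 in the knockout-labelled array and 1007.5 in the wild-type-labelled array, and at 0.55 with 972.2 in the knockout-labelled array and 662.4 in the wild-type-labelled array. In all 3 genes the brighter probe set showed little difference.

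Itgav, the alpha chain that binds RGD ligands and pairs with Itgb5 and Itgb6 to activate latent TGF-beta, read 3207 in the knockout-labelled array and 3977 in the wild-type-labelled array, a log2 ratio of -0.31. Itgb6, its epithelial partner, read 769.7 in the knockout-labelled array and 901.0 in the wild-type-labelled array, a log2 ratio of -0.23, close to the filter. Itgb5 read 6499 in the knockout-labelled array and 5266 in the wild-type-labelled array by its brightest probe set, a log2 ratio of 0.30. Its other 3 probe sets gave -0.11, -0.11 and -0.40, so the sign depends on the probe set. Itga1, the collagen-binding chain of mesenchyme and muscle, read 3508 in the knockout-labelled array and 3963 in the wild-type-labelled array on MOE430B, a log2 ratio of -0.18, with 0.05 by its other probe set. None of these 4 chains differed by 1.5-fold by a passing probe set. An Itgav probe set just below the filter read 437.9 in the knockout-labelled array and 781.0 in the wild-type-labelled array, 1.78-fold lower. Another below the filter on MOE430A had a log2 ratio of 0.15.

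Integrin chains below the filter were Itga2, with 325.9 in the knockout-labelled array and 477.5 in the wild-type-labelled array, Itga7, the laminin receptor chain of skeletal and heart muscle, with 504.0 in the knockout-labelled array and 408.5 in the wild-type-labelled array, and Itgb3. Itgb3, of platelets and vessels, read 109.0 in the knockout-labelled array and 118.8 in the wild-type-labelled array on MOE430A, and 456.7 in the knockout-labelled array and 253.8 in the wild-type-labelled array on MOE430B. No statement on these chains, on Itgb4, or on Lama1 and Lamb2 is possible beyond these signals.

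By the probe sets that represent each gene on MOE430A, the cytoplasmic partners of integrins were the most even group. On MOE430A 1 of 4 was higher and 3 lower, none past 1.5-fold, with a median log2 ratio of -0.08 and a range of -0.20 to 0.01. Vcl, vinculin, read 7569.7 in the knockout-labelled array and 7537 in the wild-type-labelled array, a log2 ratio of 0.01, with -0.20 by its other probe set. Tln1, talin, which switches integrins on, read 3628 in the knockout-labelled array and 3662 in the wild-type-labelled array, -0.01, with 0.06 by the other. Ilk, integrin-linked kinase, read 6039 in the knockout-labelled array and 6916 in the wild-type-labelled array, -0.20. Pxn, paxillin, read 6373 in the knockout-labelled array and 7019.6 in the wild-type-labelled array, -0.14, but its 3 probe sets ranged from -0.14 to 0.46. On MOE430B the only probe set of this group, of Tln1, was below the filter. It read 332.3 in the knockout-labelled array and 588.3 in the wild-type-labelled array, 1.77-fold lower.

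**Figure D3:**
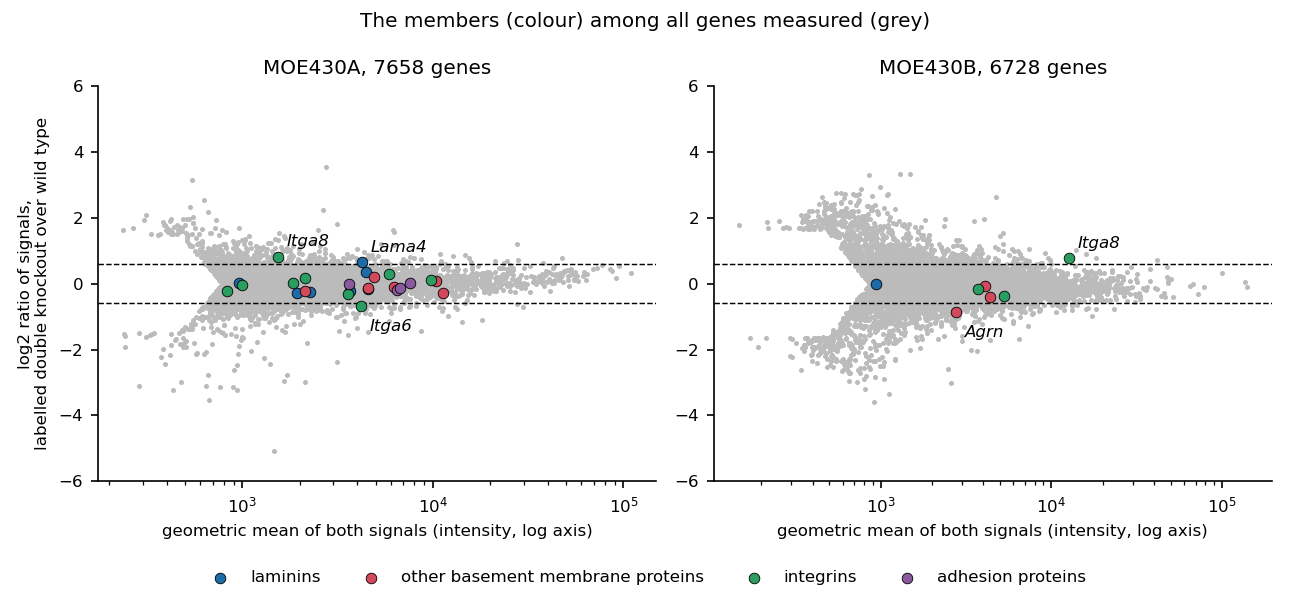
Log2 ratio of the knockout-labelled over the wild-type-labelled signal against the geometric mean of both signals (log axis) for all measured genes (grey) and the members (coloured by group), on MOE430A with 7658 genes, left, and MOE430B with 6728 genes, right. Dashed lines mark 1.5-fold and members past them are named. The members lie within the cloud of all genes, with Itga8 and Lama4 above the upper line and Itga6 and Agrn below the lower one.

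Wider lists of the same pathway were also chosen with earlier results of these data known. Of 11 other basement membrane genes on MOE430A none was past 1.5-fold and the median log2 ratio was 0.03. On MOE430B 1 of 8 was at least 1.5-fold higher and 1 lower, where 14.3% and 14.0% of all genes were. The median there was -0.21. The highest were Sparc, a collagen-binding matricellular protein, at 0.87 on MOE430B but 0.16 on MOE430A, and Lamc3, a laminin gamma chain, at 0.53. The lowest were Col4a4, a type IV collagen chain, at -0.70 with -0.13 by its other probe set, and Hmcn1, hemicentin, at -0.55. Col4a1, the main type IV collagen chain, read 25126 in the knockout-labelled array and 24855 in the wild-type-labelled array, a log2 ratio of 0.02, and was named after its value was seen.

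For the dystroglycan complex, 7 genes on MOE430A had a median of -0.07 and none was past 1.5-fold. Of 2 on MOE430B 1 was at least 2-fold higher, where 7.07% of all genes were. Dmd, dystrophin, which ties dystroglycan to actin, had 1.46 on MOE430B but 0.18 on MOE430A. On MOE430B it read 899.2 in the knockout-labelled array and 327.4 in the wild-type-labelled array, the latter close to the floor of 278.1. Dmd lay in the dimmest signal class of that design, where 32.7% of genes were at least 1.5-fold higher. Sgca, a sarcoglycan of striated muscle, had 0.57. Utrn, utrophin, had -0.33, with 0.39 by its other probe set, and Pomt2, an enzyme that starts the sugar chains of dystroglycan, had -0.20 and -0.03 on MOE430A and MOE430B. Cardiac muscle markers were strong in both arrays, with 5 of 6 higher and sums of 265037 in the knockout-labelled array and 228596 in the wild-type-labelled array on MOE430A. Only the sixth, Nppa, was past 1.5-fold there. It was 1.62-fold lower, with 23308 in the knockout-labelled array and 37747 in the wild-type-labelled array. Of skeletal muscle markers on MOE430A, 2 of 3 were at least 1.5-fold lower, where 6.32% of all genes were. They were Acta1 at -0.73 and Mylpf, below the floor in the knockout-labelled array, with a bound of -1.69. The brightest, Ckm, was higher, at 0.27 on MOE430A and 0.14 on MOE430B. With it, the 3 summed to 46757 in the knockout-labelled array and 42639 in the wild-type-labelled array on MOE430A. Most of that sum was Ckm, with 42727 in the knockout-labelled array and 35417 in the wild-type-labelled array. Myh3, Tnni2 and Tnnt3 were below the filter. The part of heart muscle in Ckm, Sgca, Dmd and Lama2 was not tested.

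Other integrins and laminin receptors had a median of -0.05 over 5 genes on MOE430A, none past 1.5-fold. Itga10 was the 1 gene on MOE430B, with 1241 in the knockout-labelled array and 455.2 in the wild-type-labelled array, 2.73-fold higher. Over all genes of that design 7.07% were at least 2-fold higher. Itga10, like Dmd, lay in the dimmest signal class of that design, where 32.7% were at least 1.5-fold higher. Itga2b, the platelet chain, had 0.42, Cd151, a tetraspanin bound to laminin-binding integrins, -0.29 and Sdc4, a syndecan, -0.37. The probe sets of Cd151 ranged from -0.29 to 1.06 and those of Sdc4 from -0.37 to 2.52.

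Of 7 other integrin ligands on MOE430A, 5 had ratios below 0 and 2 above. The median was -0.28, and 2 were at least 1.5-fold lower, where 6.32% of all genes of the design were. Tnc, tenascin-C, read 700.4 in the knockout-labelled array and 1204 in the wild-type-labelled array, 1.72-fold lower. Thbs1, thrombospondin, read 1242 in the knockout-labelled array and 1959 in the wild-type-labelled array, 1.58-fold lower, with -0.11 on the log2 scale by its other probe set. Mfge8 had 0.06, and Tgfb1, the cytokine whose latent form integrins activate, had 0.44 on MOE430B and -0.01 on MOE430A. Fn1, fibronectin, named after its value was seen, read 17972 in the knockout-labelled array and 21818 in the wild-type-labelled array, a log2 ratio of -0.28.

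Among other adhesion proteins, 12 of 18 genes on MOE430A were higher, with a median of 0.08. Of the 18, 1 was at least 1.5-fold higher and 1 lower, where 6.23% and 6.32% of all genes were. On MOE430B 4 of 7 were higher with a median of 0.01, and 1 was at least 1.5-fold lower, where 14.0% of all genes were. Lims1, PINCH, a partner of integrin-linked kinase, had 0.77, from 10376 in the knockout-labelled array and 6078 in the wild-type-labelled array, although its 3 probe sets ranged from -0.21 to 0.77. Tns1, tensin, had 0.51 on MOE430A and 0.09 on MOE430B. Tln2, the second talin, had -0.74, and -0.42 by its other probe set. Fermt3, the kindlin of blood cells, was at least 4.40-fold lower on MOE430A, with 260.0 in the knockout-labelled array and 1249 in the wild-type-labelled array, but 0.01 on the log2 scale on MOE430B. Epithelial markers had a median of 0.20 on MOE430A, where 6 of 10 were higher and 2 at least 1.5-fold. Over all genes of that design, 6.23% were at least 1.5-fold higher.

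**Figure D4:**
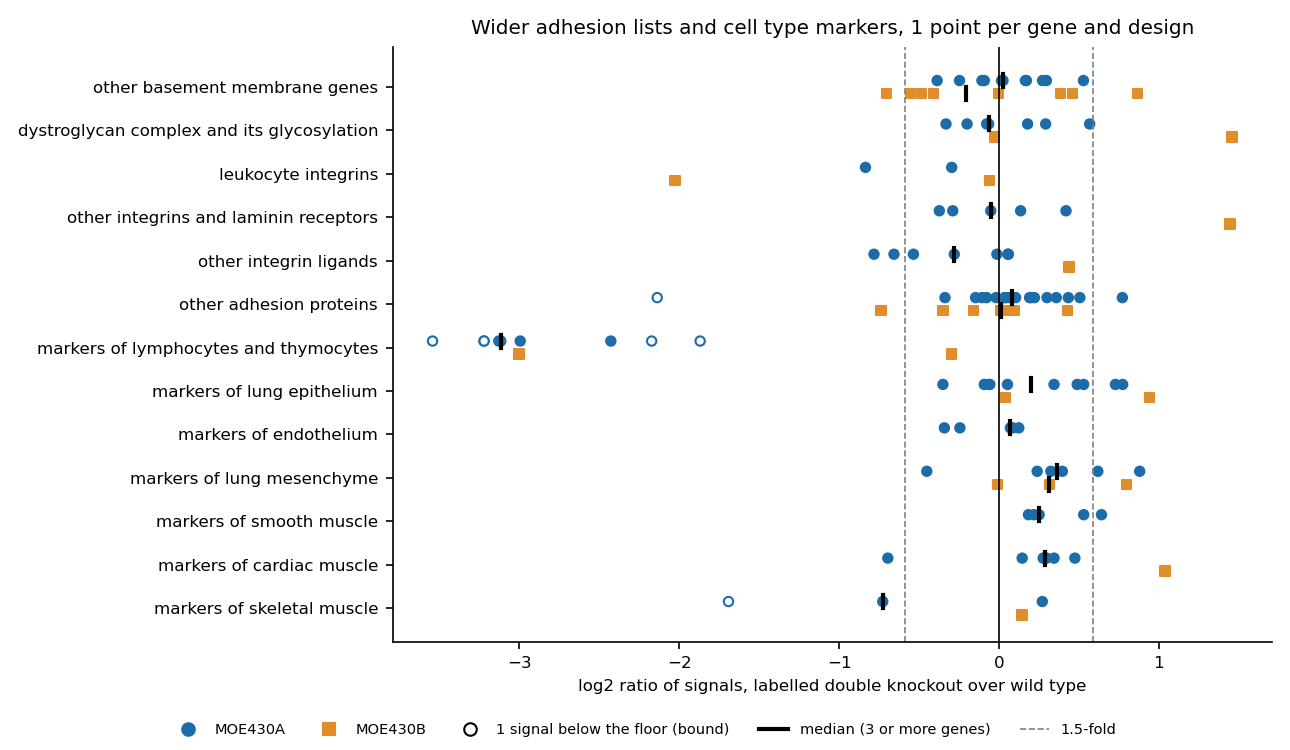
Log2 ratio of the knockout-labelled over the wild-type-labelled signal for the genes of the wider adhesion lists and of the cell type marker lists, with 1 point per gene on MOE430A (circles) and MOE430B (squares). Open symbols are bounds with 1 signal below the floor, bars are medians of 3 or more genes and dashed lines mark 1.5-fold. The lymphocyte markers on MOE430A lie between -3.54 and -1.87, bounds included, and the medians drawn for the adhesion lists lie between -0.28 and 0.08.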

How the data were processed

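The deposited values are signal intensities on a linear scale, 1 per probe set, which the authors made with MAS5, per the submitters' processing notes. Neither its version nor its settings are stated there. Arrays shared a trimmed mean (2% off each end) of 1500.2 to 1500.5, which is a separate scaling per array, so no ratio was formed across designs. Dim MAS5 signals are noisy, and their ratios spread more.

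Each design's 64 control probe sets were dropped from these intensities. The knockout-labelled array was divided by 1 factor per design (1.004 and 1.008) so that passing probe sets had a median ratio near 1. Printed knockout-labelled signals are after this division, except those of control probe sets. Probe sets passed at the 50th percentile of signals, and signals under the 25th percentile were set to that floor (283.8 on MOE430A, 278.1 on MOE430B), which makes such ratios bounds. Names came from GEO's platform annotation, which paired 20380 probe sets on MOE430A and 14661 on MOE430B with 1 gene, 691 and 245 with several and 1555 and 7605 with none. Only probe sets with 1 gene were named. Passing probe sets numbered 12203 and 12892.

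The groups were taken from the sample titles. Members and lists were chosen with earlier results of these data known. Signals are given for members past 1.5-fold by a passing probe set, for the 2 highest and 2 lowest of each group and for those whose probe sets disagree; of wider lists, the 2 highest and 2 lowest genes are named. With 1 array per genotype and design nothing was tested. The steps were tested on simulated data. The 8 alternatives were the signals as deposited, quantile normalization, a loess curve removed, a floor at the 10th percentile, a stricter filter (75th percentile) or none, the median over probe sets, and no probe sets ending in _s_at, _x_at or _a_at. The work used python 3.11.15, pandas 2.3.3 and statsmodels 0.14.6.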

Additional observations from a re-analysis of the deposited data

How the results depend on the processing

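Results were recomputed under 8 alternatives, and a value counted as moved when it changed by more than the SD of 0.24, or a count by more than 1.5 times. Of the recomputed group medians and counts 80 stayed within that and 7 did not, and no value past 1.5-fold changed sign. With the median over probe sets in place of the brightest one, 1 member was at least 1.5-fold higher on MOE430A instead of 2 and 0 lower instead of 1, and on MOE430B 2 were lower instead of 1. Under it Lama4 had a log2 ratio of 0.34 and Itga6 one of -0.56, both under 1.5-fold, Itga9 had 0.37, Itga3 -0.58 and Itga4 -1.004. With no filter on signal, 3 members were at least 1.5-fold higher and 2 lower on MOE430B, where the medians became 0.45 for 2 laminins and 0.27 for 4 integrins, because dimmer genes were added. Without probe sets ending in _s_at, _x_at or _a_at, Itgb5 had -0.40, Itga5 0.55, Pxn 0.46 and Lamb1 0.07 on MOE430A. Itga8 kept between 0.81 and 0.84 on MOE430A and between 0.77 and 0.88 on MOE430B. On MOE430A the group medians ranged from -0.20 to 0.07 for laminins, from -0.18 to -0.10 for other basement membrane proteins, from -0.11 to 0.09 for integrins and from -0.09 to 0.01 for adhesion proteins, so the signs of laminins, integrins and adhesion proteins depend on the setting. With a filter at the 75th percentile no laminin was left on MOE430B, and no adhesion protein gave a value there in the setting used. No paired analysis was possible because each genotype has 1 array per design. Signal over background limits the 6 members that passed on neither design.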
